A study of Mus musculus with 12 samples.

Results

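The genes described here are 10 neighbours on mouse chromosome 6, of 16335 genes in the table. They form 2 blocks: Tes, Cav2, Cav1, Met, Capza2 and St7 (6 genes), and Mios, Rpa3, Umad1 and Glcci1 (4 genes). They were picked by name because their levels in these same 12 libraries moved together from library to library regardless of treatment. Their levels, their covariation and the edges of the blocks are therefore given as a description, with no test, and only the differences between treatments were tested. The working name of the set places part of it at the distal end of the chromosome, and the coordinates go against that. Mios to Glcci1 lies nearest the start of the chromosome, and St7, the last gene of the other block, ends at 17.9 Mb, while the last gene of the table on chromosome 6 starts at 149.4 Mb.

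Each library comes from a tumor of BVMA01R, a mouse sarcoma line with the genotype Myf5-Cre;p53-/-;Ass1-/-, labelled as female and strain C57BL/6J. The 4 groups of 3 libraries are untreated, chloroquine (which blocks acidification of lysosomes), ADI-PEG20 (arginine deiminase coupled to polyethylene glycol, an enzyme that depletes arginine in the blood) and ADI-PEG20 plus chloroquine. All 4 groups share the line and so its Cre driver, which acts in the muscle lineage, and its deletions. The labels used here give no dose, time or age, the tumors hold host cells as well as cells of the line, and a single line limits what the groups can stand for. The labels do not tie the libraries to separate animals, and p-values therefore measure the spread between these samples, which may be technical. Libraries held between 15501998 and 28410940 recovered reads. Within groups, pairs of libraries differed by 26.5 to 324 in chi-square per degree of freedom, where counting error alone gives about 1. None is therefore merely the same library sequenced again, but this does not show that they come from separate tumors. ADI-PEG20 1 stood apart with 120 genes at 0 reads, against 7 to 43 in the other 11. Ass1 gave 153 to 397 reads and Trp53 326 to 756 reads per library, and these counts do not show which exons were deleted. Of 10 markers of myogenic progenitors, 9 were in the table and Pax7 was not, and their summed level ran from 418 to 1516 CPM (read counts scaled to the effective size of the library).

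Met encodes the receptor tyrosine kinase for hepatocyte growth factor, which drives growth, scattering and invasion of cells and is amplified in some tumors. Cav1 and Cav2 encode caveolins, the membrane proteins that build caveolae together with the cavins, and Cav1 is abundant in fat and endothelium. Tes encodes testin, a LIM protein of focal adhesions; Capza2 encodes an alpha subunit of the protein that caps actin filaments; St7 was named for suppression of tumorigenicity. Mios is a subunit of GATOR2, which relieves the brake on mTORC1 when amino acids are plentiful. Rpa3 is the smallest subunit of replication protein A, the complex that coats single-stranded DNA. Umad1 carries a domain of the kind found in UBAP1 and MVB12, subunits of the endosomal sorting complex ESCRT-I, and Glcci1 is a gene induced by glucocorticoids.

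The members' start regions are shown for the genes on which the description turns: Cav1 and Met, which kept together in all libraries, Tes, which parted from them in 1 library, and the stretch between Rpa3 and Umad1, whose start sites lie 115 bases apart and point away from each other. The sequences are RefSeq's, build GRCm38.p6, plus strand, 5′ to 3′. For Tes (chr6:17064899-17065148), Cav1 (chr6:17306085-17306334) and Met (chr6:17463707-17463956) they are the 250 bases before the RefSeq start. The bases between Rpa3 and Umad1 are chr6:8259174-8259287, 114 bases long. Capitals mark matches, on either strand and wholly within the printed bases, to the TATA box TATAAA, the GC box GGGCGG, the CCAAT box CCAAT, the AP-1 motif TGANTCA and the E-box CACGTG.
Tes: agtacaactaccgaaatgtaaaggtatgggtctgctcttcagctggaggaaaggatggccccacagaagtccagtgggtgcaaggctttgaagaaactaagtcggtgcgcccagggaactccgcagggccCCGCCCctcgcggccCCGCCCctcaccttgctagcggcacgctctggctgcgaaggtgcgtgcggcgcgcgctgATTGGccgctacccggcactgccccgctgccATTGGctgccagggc
Cav1: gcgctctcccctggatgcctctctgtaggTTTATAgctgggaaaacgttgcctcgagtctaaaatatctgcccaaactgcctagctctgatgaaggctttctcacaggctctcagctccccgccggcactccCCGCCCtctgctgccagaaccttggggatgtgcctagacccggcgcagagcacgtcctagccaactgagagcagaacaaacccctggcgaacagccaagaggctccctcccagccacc
Met: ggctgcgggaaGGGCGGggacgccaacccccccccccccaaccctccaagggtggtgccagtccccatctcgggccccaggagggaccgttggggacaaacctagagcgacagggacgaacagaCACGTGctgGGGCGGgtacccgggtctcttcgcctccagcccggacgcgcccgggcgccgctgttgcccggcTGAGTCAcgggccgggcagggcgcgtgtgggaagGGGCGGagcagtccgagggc
Rpa3-Umad1: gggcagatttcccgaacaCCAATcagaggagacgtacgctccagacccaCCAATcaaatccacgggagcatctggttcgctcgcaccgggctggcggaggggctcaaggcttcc
All 10 members had a start region in RefSeq's table (250 bases before the start and 50 after). In these 300 bases, GGGCGG was found in 9 of the 10, all but St7, and in 35.7% of 32851 start regions. CCAAT was found in Tes, Cav2, Rpa3 and Umad1, against 37.4% of all. The start regions of Rpa3 and Umad1 share 246 of their 300 bases and hold the same CCAAT sites, so they are not separate cases. TGANTCA was found in Cav2 and Met, against 7.81% of all, CACGTG in Met and St7, against 7.15%, and TATAAA in Cav1 and St7, against 13.6%. The members' GC content ran from 58.7% to 76.3%, and the median of all start regions was 52.7%. None of these motifs was shared by all members, and a match is a run of letters, not a bound site.

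In the block around Met, expression differed between libraries by 20.2-fold to 45.3-fold, and libraries of the same treatment group lay 1.74 to 4.58 log2 apart. Met itself (ENSMUSG00000009376, chromosome 6, 17463800 to 17573980, plus strand, GRCm38) was at 11.40, 11.82 and 8.48 log2 CPM in untreated libraries 1, 2 and 3, at 7.56, 9.75 and 9.82 with chloroquine, at 6.65, 10.34 and 10.18 with ADI-PEG20, and at 7.93, 11.29 and 8.11 with both. That is 100.1 to 3617 CPM, or 1260 to 67806 reads. Untreated 1 and 2 and doubly treated 2 were the highest, ADI-PEG20 1 was the lowest, and the ranges of all 4 groups overlapped. The span of Met was 5.18 log2 over all libraries and 4.26 without ADI-PEG20 1.

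The caveolins followed much the same order of libraries, with a Spearman rho with Met of 0.986 for Cav1 and 0.972 for Cav2. Cav1 (ENSMUSG00000007655, 17306335 to 17341452, plus strand) stood at 11.71, 12.39 and 8.73 log2 CPM in the untreated libraries, 8.36, 10.10 and 9.68 with chloroquine, 7.61, 10.66 and 10.18 with ADI-PEG20, and 8.30, 11.52 and 8.72 with both. Cav2 (ENSMUSG00000000058, 17281185 to 17289115, plus strand) stood at 8.83, 9.75 and 5.98 without treatment, 5.46, 7.20 and 6.90 with chloroquine, 4.83, 8.06 and 7.67 with ADI-PEG20, and 5.29, 8.93 and 6.03 with both. For both caveolins the 3 highest libraries were untreated 2, untreated 1 and doubly treated 2, and the lowest was ADI-PEG20 1. The highest library exceeded the lowest 27.4-fold for Cav1 and 30.4-fold for Cav2, against 36.1-fold for Met.

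Capza2 (ENSMUSG00000015733, 17636234 to 17666972, plus strand) was at 10.18, 11.04 and 7.63 log2 CPM in untreated libraries, 6.85, 8.78 and 8.90 with chloroquine, 6.24, 9.10 and 9.68 with ADI-PEG20, and 7.71, 10.52 and 7.13 with both. St7 (ENSMUSG00000029534, 17692933 to 17943025, plus strand) was at 7.21, 8.497 and 5.20, then 4.65, 5.57 and 6.42, then 4.16, 6.68 and 7.06, and 5.06, 8.17 and 4.53 in the same order of groups. St7 had the narrowest span of the 6, 20.2-fold, and Capza2 spanned 27.8-fold. Cav2, Cav1, Met, Capza2 and St7 all lay on the same side of their own medians in 10 of 12 libraries. Chloroquine 2 and 3 were the exceptions, with values close to the medians. Within a library, the deviations of these 5 genes from their medians lay within 0.51 to 1.31 log2 of each other, and the widest spread was in ADI-PEG20 1.

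Tes (ENSMUSG00000029552, 17065149 to 17105828, plus strand), the gene at the start of the block, departed from the rest in untreated 2. Its levels were 10.75, 6.57 and 7.19 log2 CPM in untreated libraries, 5.55, 8.999 and 8.14 with chloroquine, 5.25, 9.14 and 8.78 with ADI-PEG20, and 5.96, 10.45 and 5.87 with both. In untreated 2, Met exceeded Tes by 5.26 log2, whereas in the other 11 libraries the same difference ran from 0.65 to 2.25. Tes there gave 94.7 CPM, below 7 of the other 11 libraries, while the 5 other genes of the block reached their highest level. From the end of Tes to the start of Cav2 is 175 kb, and the step in untreated 2 falls between these genes. The scarce genes D830026I12Rik and Gm15581 start in this gap, with at most 80 and 94 reads. In untreated 2 they lay 0.12 and 2.08 log2 above their medians. Gm15581 also overlaps Cav2 and Cav1.

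**Figure D1:**
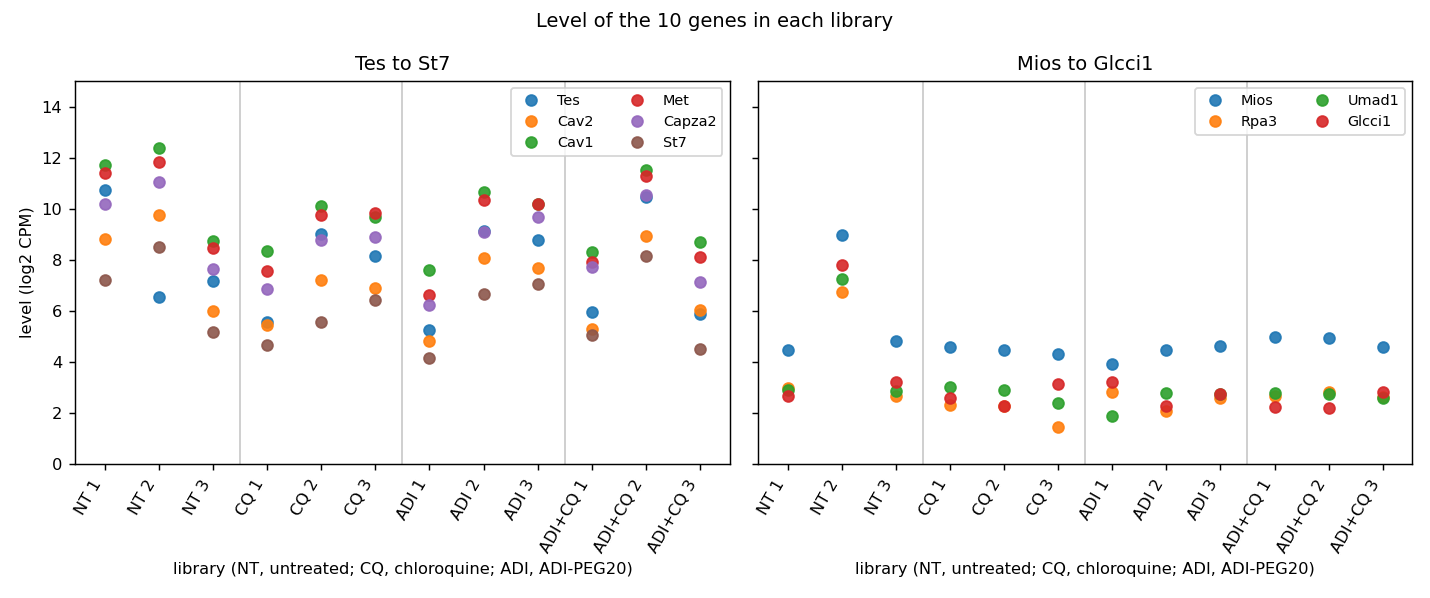
Level of each of the 10 genes (log2 CPM, vertical axis) in each of the 12 libraries (horizontal axis, grouped by treatment), 1 point per gene and library. The 6 genes on the left share their high and low libraries except for Tes in untreated 2, and the 4 genes on the right stand high in untreated 2 alone.

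Over the 12 libraries the levels of Cav2, Cav1, Met, Capza2 and St7 correlated with each other with Pearson r from 0.947 to 0.996 (10 pairs, Spearman rho 0.94 to 0.99). Met with Cav1 gave r = 0.99 and rho = 0.99, and r = 0.99 again without ADI-PEG20 1 and chloroquine 1, the libraries farthest from the median of Met. Met with Tes gave r = 0.78 over 12 libraries, 0.66 without those libraries and 0.98 without untreated 2. Genes of a library share its depth and scaling, and the genes were chosen for this covariation, so these values only describe it.

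The other block was flat in 11 libraries and high in untreated 2. Mios (ENSMUSG00000042447, chromosome 6, 8209222 to 8236274, plus strand) was at 4.47, 8.98 and 4.83 log2 CPM in untreated libraries, 4.61, 4.47 and 4.34 with chloroquine, 3.92, 4.49 and 4.62 with ADI-PEG20, and 4.99, 4.94 and 4.59 with both. In untreated 2 it gave 505 CPM (8227 reads), 20.9-fold the median of the other 11, which lay between 15.1 and 31.9 CPM. Rpa3 (ENSMUSG00000012483, 8255936 to 8259173, minus strand) was at 2.99, 6.73 and 2.67, then 2.33, 2.28 and 1.44, then 2.83, 2.07 and 2.60, and 2.67, 2.84 and 2.64 log2 CPM in the same order of groups, 17.0-fold higher in untreated 2 than the median of the others.

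Umad1 (ENSMUSG00000089862, 8259288 to 8459470, plus strand), which starts head to head with Rpa3 at the stretch printed above, stood at 2.91, 7.23 and 2.88 log2 CPM in untreated libraries, 3.03, 2.89 and 2.41 with chloroquine, 1.88, 2.80 and 2.77 with ADI-PEG20, and 2.81, 2.76 and 2.61 with both. Glcci1 (ENSMUSG00000029638, 8509600 to 8597548, plus strand) stood at 2.66, 7.81 and 3.22, then 2.59, 2.28 and 3.16, then 3.22, 2.29 and 2.75, and 2.24, 2.22 and 2.81. Untreated 2 exceeded the median of the other libraries 21.5-fold for Umad1 and 35.4-fold for Glcci1. Among the other 11 libraries the 4 genes of the block spanned only 1.01 to 1.55 log2 each. Their pairwise r was 0.91 to 0.99 with untreated 2 and -0.57 to 0.72 without it (6 pairs), so the covariation of this block rests on that library. The means of the 2 blocks correlated with r = 0.39 over 12 libraries and 0.04 without untreated 2.

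Per kilobase of exon, the members' median levels ran in the order Cav1 (8.11 log2 CPM per kb), Met (6.85), Capza2 (6.28), Cav2 (5.31), Tes (4.89), St7 (2.82), Rpa3 (2.47), Mios (1.89), Umad1 (0.48) and Glcci1 (-0.25). Cav1 was above Met in 12 of 12 libraries, by 1.54 ± 0.31 log2 (mean ± SD of the difference, n = 12). Met was above Capza2 in 11 of 12 and Capza2 above Cav2 in 12 of 12, whereas Cav2 was above Tes in only 5 of 12 and St7 above Rpa3 in 6 of 12. The latter 2 pairs of neighbours did not differ beyond their spread, with mean differences of 0.39 ± 1.36 and 0.27 ± 1.39 log2. Rpa3 was above Mios in 11 of 12 libraries (0.43 ± 0.45) and Umad1 above Glcci1 in 10 of 12 (0.61 ± 0.63), with means just under the SD.

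Among all genes, 804 of 16335 (4.92%) spanned at least 4 log2 CPM over the 12 libraries, and all 10 members were among them, as the choice of members implies. Most of the 804 are scarce: of the 8132 genes with a mean of at least 4 log2 CPM, 30 (0.369%) spanned that much, and 7 of the 30 are members. In 22 genes (0.135%) untreated 2 exceeded the next library by at least 2 log2 CPM, and 10 of these are on chromosome 6. Besides the 10 members, 826 of the 16335 genes lie on that chromosome. The 10 high genes include Mios, Rpa3, Umad1 and Glcci1, which were chosen for this pattern. Gm16055, Gm8428 and A430035B10Rik lie between Mios and Glcci1 and overlap Umad1 or Glcci1, so they are not separate cases. The rest are Gm26809, Mkln1os and A2m, which start at bases 18844220, 31366885 and 121635376. Reads of the overlapping genes cannot be told apart from those of the members without strand. In the other libraries the same count was 0 to 5, with none on chromosome 6. The genes outside the 2 blocks and their neighbours were named after their values were seen.

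The edges of the blocks were followed in the genes next to them in the table. Between Glcci1 and Tes lie 8.47 Mb with 15 genes of the table. In untreated 2 their levels differed from the median of the other 11 libraries by -0.94 to 2.37 log2, with a median of -0.21, and 2 of them, the scarce genes Ppp1r3a and Foxp2, were higher by at least 1. On the near side of Mios, Col28a1, a collagen gene 16605 bases away, was at 3.49 log2 CPM in untreated 2 and 0.29 to 3.50 elsewhere. C1galt1, an enzyme of O-glycan synthesis, and Asns, the asparagine synthetase gene, were at 4.10 and 5.71 in untreated 2, with ranges of 4.10 to 5.82 and 5.66 to 7.30 over all 12. Beyond Glcci1, Ica1, which begins 32979 bases after it on the map, was at 2.93 in untreated 2 against 2.79 to 3.60 in all 12.

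Ahead of Tes, the genes that were high beside Met differed between libraries. Gm15473, a scarce long noncoding RNA gene 153 bases before Tes (0 to 150 reads), had r = 0.85 with the block mean. It was at 2.59 log2 CPM in untreated 1 and 1.69 in doubly treated 2, and at -0.94 in untreated 2. Gm4876, an antisense gene that overlaps Tes, ran from 1.22 to 6.26 log2 CPM and correlated with the block mean with r = 0.95. In untreated 2, Gm4876 deviated from its median by 0.81 log2 and Tes by -1.10. Whether the counting used strand is not given in the sources used here, so reads of Gm4876 cannot be told apart from those of Tes. Tfec, 167 kb before Tes, spanned 0.03 to 2.34 log2 CPM with r = -0.19, and in doubly treated 2 was at 1.37, near its median of 1.39. Farther out, Mdfic, 1.26 Mb before Tes and a regulator of transcription factors, was at 9.66 log2 CPM in doubly treated 2 and at 8.11 in ADI-PEG20 2, against 5.91 to 6.93 in the other 10 libraries. Untreated 1 and 2, as high for Met as doubly treated 2, had Mdfic at 6.34 and 5.91. Its r with the block mean was 0.32, with -0.05 without doubly treated 2 and 0.50 without untreated 2.

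After the block, the 6 nearest genes by start (Gm27960, Gm27365, Gm27542, Gm28008, Gm13898 and Gm13899) all lie within St7. They gave r of 0.88 to 0.97 with the block mean, and since they overlap St7 on the map and the treatment of such reads is not given in the sources used here, their own levels are uncertain. The next genes beyond the end of St7 were added after the data were seen. Cftr, the chloride channel gene 228 kb beyond St7, was at 3.57, 5.53 and -4.97 log2 CPM in untreated libraries, -1.53, 2.58 and 3.02 with chloroquine, -0.95, 4.22 and 4.94 with ADI-PEG20, and 0.43, 6.34 and 0.61 with both. The value of -4.97 in untreated 3 is that of 0 reads. The 3 highest libraries for Cftr were doubly treated 2, untreated 2 and ADI-PEG20 3, and its r with the block mean was 0.83. Wnt2, 45915 bases beyond St7, was scarce (-2.65 to 2.05 log2 CPM) with r = 0.80.

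Cttnbp2, the next coding gene after Cftr, spanned only 0.39 to 2.11 log2 CPM, with r = 0.28. Lsm8, the gene of an RNA-binding protein that works with the spliceosome, 906 kb beyond St7, was high again in a few libraries: 8.45 log2 CPM in untreated 2, 6.82 in ADI-PEG20 3 and 5.29 in chloroquine 3, against 3.34 to 4.94 in the other 9. Gm26809, next to it, was at 7.92, 5.20 and 4.25 in the same 3 libraries and at 2.502 to 3.61 elsewhere. Doubly treated 2 and untreated 1, both high for Met, had Lsm8 at 4.32 and 4.38. The neighbours that were high beside Met thus differed by library: Mdfic in doubly treated 2, Tes but not Lsm8 in untreated 1, and Lsm8 with Mios to Glcci1 but not Tes in untreated 2.

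**Figure D2:**
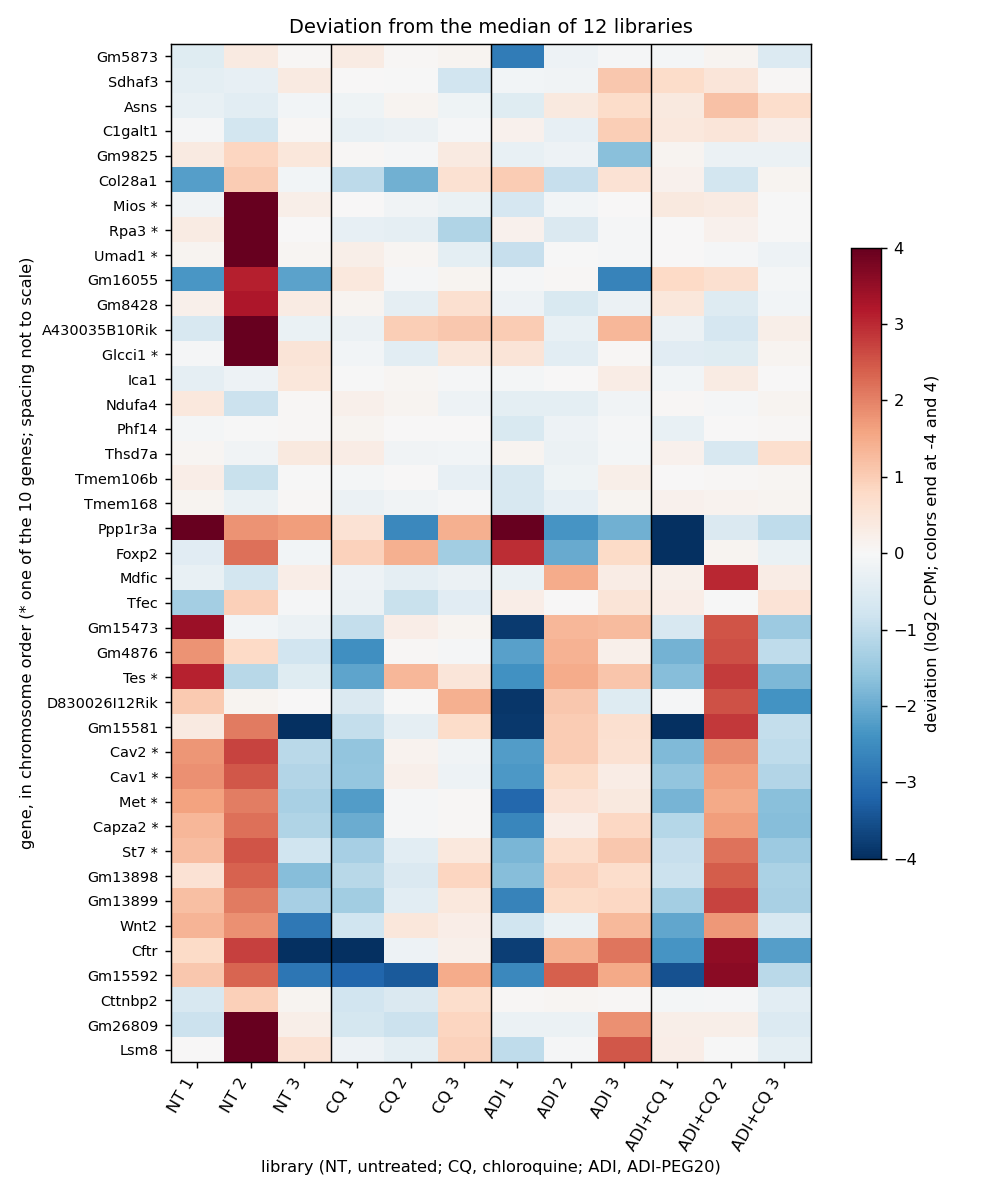
Deviation of each gene's level from its median over 12 libraries (log2 CPM, color) for the 2 blocks and their neighbours in chromosome order (rows; spacing not to scale, 5 short RNA genes within St7 left out) in each library (columns). Untreated 2 is dark at Mios to Glcci1 and at Gm26809 and Lsm8, and pale at Tes, while doubly treated 2 is high from Mdfic to Gm15592 apart from Tfec.

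**Figure D3:**
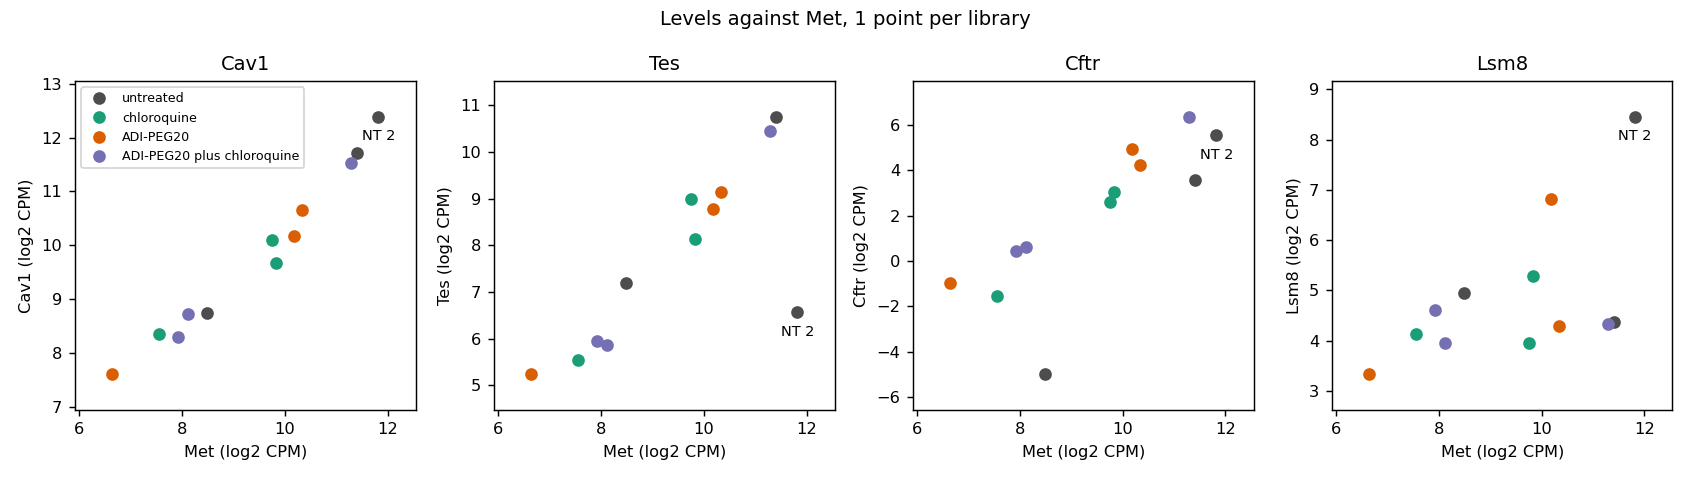
Levels of Cav1, Tes, Cftr and Lsm8 (log2 CPM, vertical axes) against the level of Met (log2 CPM, horizontal axes), 1 point per library, colored by treatment, with untreated 2 marked NT 2. Cav1 follows Met in all 12 libraries, Tes lies low in untreated 2, and Lsm8 is high in untreated 2 and ADI-PEG20 3.

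The genes most like each block over the 12 libraries were ranked by Pearson r with the block mean. For the block around Met, 3 of the leading 10 lie within or across it: Gm13899 (r = 0.97), Gm4876 (0.95) and Gm27960 (0.94). The other 7 lie on other chromosomes. They are Naa11 (0.93), an acetyltransferase gene, Itga6 (0.92), the integrin alpha 6 gene, Acsbg1 (0.91), an acyl-CoA synthetase gene, Siglec15 (0.91), Hmga2 (0.91), a chromatin protein gene, Slc30a4 (0.90), a zinc transporter gene, and Upp1 (0.90), the uridine phosphorylase gene. Hmga2 spanned 3.45 to 7.997 log2 CPM and Itga6 6.85 to 8.455. By Spearman rho, by deviations from the group means, and without untreated 2, the leading 10 shared 6 genes with these in each case.

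For Mios to Glcci1, the leading 10 were Tmem170 (r = 0.96), Gm15587 (0.95), Zfp719 (0.94), Gm23153 (0.94), Rapsn (0.92), Gm8428 (0.92), Gm24105 (0.90), 5730455P16Rik (0.90), Gm26461 (0.89) and Tshz1 (0.89). Untreated 2 was the highest library for all 10. Tmem170 reached 5.68 log2 CPM there, against a lowest value of 1.30. Ranked by Spearman rho, or without untreated 2, none of these 10 was among the leading 10, so the likeness rests on that library.

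The members' levels were then compared between treatments. The choice of members named no treatment but used the same libraries, and Mios to Glcci1 were chosen for a pattern set by an untreated library, so the sign of their differences from untreated comes with the choice. No difference passed the test. In none of the 6 contrasts did any of 16335 genes, members included, reach an adjusted p under 0.05 (0%; limma with a trend in expression, two-sided, Benjamini-Hochberg over all genes). At an unadjusted p under 0.05 there were 1357 genes with ADI-PEG20, 555 with chloroquine and 1413 with both against untreated, 559 and 1107 for the combination against ADI-PEG20 and against chloroquine, and 696 for the interaction. With voom and library quality weights the adjusted counts were 0 in 5 contrasts and 1 for the combination against chloroquine.

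Means of Met were 10.57 ± 1.82 log2 CPM untreated, 9.04 ± 1.29 with chloroquine, 9.06 ± 2.09 with ADI-PEG20 and 9.11 ± 1.89 with both (SD, n = 3 each). With ADI-PEG20, Met differed from untreated by -1.51 on the log2 scale (SE 1.14, 95% limits -3.98 to 0.96, adjusted p = 0.71 by limma). With chloroquine the difference was -1.53 (limits -3.99 to 0.94), and with both -1.46 (limits -3.92 to 1.01). The other genes of the block gave -1.67 to -0.44 over the same 3 contrasts, with adjusted p from 0.687 to 0.999. Tes gave the differences nearest 0, -0.44, -0.61 and -0.74.

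For Mios to Glcci1 the differences from untreated were -1.86 to -1.63 with ADI-PEG20, -2.11 to -1.57 with chloroquine and -2.14 to -1.25 with both, with adjusted p of 0.59 to 0.61, 0.999 and 0.56 to 0.69. These values rested on untreated 2: without it, Mios differed by -0.31, -0.18 and 0.19, Rpa3 by -0.33, -0.81 and -0.11, Umad1 by -0.41, -0.12 and -0.17, and Glcci1 by -0.19, -0.27 and -0.52 in the same contrasts. Met without untreated 2 differed by -0.89, -0.90 and -0.83. As single libraries were left out, the Met difference with ADI-PEG20 ran from -2.56 (without untreated 3) to -0.31 (without ADI-PEG20 1). Tes, low in untreated 2, differed by -1.25, -1.41 and -1.54 without it.

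All treated libraries lay below all untreated ones for Umad1 with ADI-PEG20, for Rpa3 with chloroquine and for Umad1 with both, 1 member of 10 in each contrast. Over all genes, the groups did not overlap in either direction for 10.1%, 7.41% and 15.4%, so 1 in 10 is near the background. Adding chloroquine to ADI-PEG20 gave member differences of -0.33 to 0.50, and adding ADI-PEG20 to chloroquine gave -0.25 to 0.70. The interaction was 0.31 to 2.32 over the 10 members, with limits of -4.003 to 5.069 in the block around Met and a smallest adjusted p of 0.82. The contrasts with untreated share the same 3 untreated libraries.

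**Figure D4:**
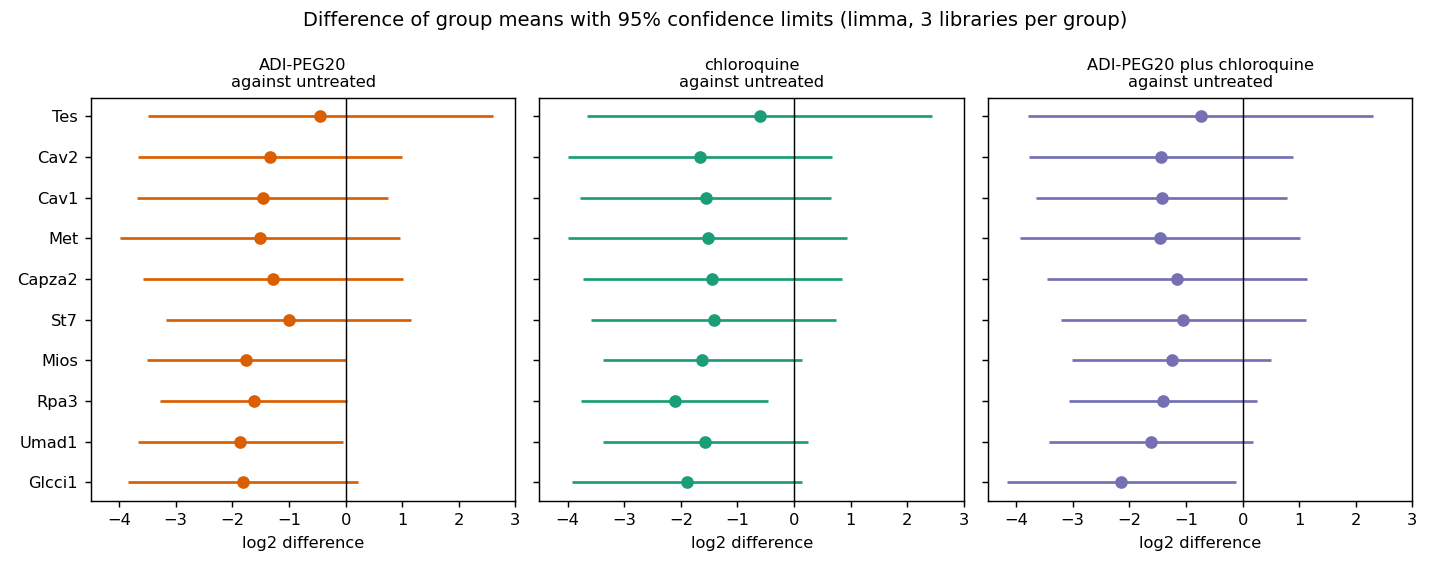
Difference in mean level (log2 scale, horizontal axis; points) of each of the 10 genes from untreated libraries, with 95% confidence limits (bars), for the 3 treatments (limma, 3 libraries per group). All 30 points lie below 0, 27 of the 30 bars cross it, and 3 end below it (Umad1 with ADI-PEG20, Rpa3 with chloroquine, Glcci1 with both). That is 1 of 10 members per treatment at an unadjusted p under 0.05, beside 8.31%, 3.4% and 8.65% of all genes in the same order.

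In the authors' deposited table, whose fold changes differ from the differences of group means given above, the 10 members differed from untreated by -1.44 to 0.28 log2 with ADI-PEG20, -1.55 to -0.71 with chloroquine and -1.55 to -0.83 with both. The smallest adjusted p-values given there for a member were 0.87, 0.998 and 0.56, and none was under 0.05. For Met with ADI-PEG20 the authors' value was -0.43, against -1.51 above and -0.33 with voom and library quality weights. With chloroquine and with both, their values for Met were -1.25 and -1.24, against -1.53 and -1.46 above.

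The partners of the members spanned less than the members, which were chosen for how they moved between libraries, so that contrast comes with the choice. Of 7 lists of partner genes, 93 genes were in the table, with a median span of 0.86 log2 CPM over the libraries. For all genes, not matched for level, it was 1.17. Only Rragd and Cav3 spanned at least 4. None of the 93 passed the adjusted threshold in any contrast (0%), as for all genes. Each list is described below in the contrast that held its smallest p, so these are not typical contrasts. In the order ADI-PEG20, chloroquine and both against untreated, both against ADI-PEG20, both against chloroquine, and interaction, the genes with a positive difference were 11, 12, 10, 10, 15 and 11 of 25 for HGF and MET signalling, and 7, 5, 5, 3, 2 and 2 of 11 for the caveolar coat partners. They were 7, 9, 6, 10, 10 and 10 of 19 for GATOR and the sensors, 3, 1, 9, 8, 9 and 9 of 10 for replication protein A, and 3, 4, 5, 7, 4 and 6 of 10 for actin capping. For the partners of testin they were 3, 4, 0, 2, 1 and 2 of 10, and for ESCRT-I 6, 2, 6, 5, 5 and 4 of 8. The contrasts share libraries, so these counts do not add up as separate observations.

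For HGF and MET signalling, 25 of 26 genes were in the table. With ADI-PEG20 11 were higher and 14 lower than untreated, with a median difference of -0.004 log2, against -0.01 for all genes. The ligand gene Hgf lay between 1.85 and 3.83 log2 CPM over the 12 libraries, with r = 0.24 with the block mean. Ptprj, a phosphatase that acts on MET, was at 6.33 untreated and 6.92 with ADI-PEG20 (difference 0.60, SE 0.19, adjusted p = 0.52 by limma). Plau, a protease that activates HGF, differed by -0.48 (SE 0.19, adjusted p = 0.55 by limma). Of the caveolar coat partners, all 11 were in the table, and with the combination 5 were higher and 6 lower than untreated (median -0.06). Pacsin3 differed by -0.56 (SE 0.23) and Cav3, the muscle caveolin, by -1.08 (SE 0.82), with adjusted p of 0.55 and 0.74 by limma. Cavin1, the main coat protein beside Cav1, lay between 8.62 and 9.29 log2 CPM with r = -0.08, and Cavin2 between 5.66 and 6.69 with r = 0.67. Across the lists, Ubap1 (r = 0.79), Cd44 (0.71) and Tsg101 (0.70) had the highest r with the block mean, with spans of 0.856, 0.996 and 0.658 log2. Cavin2 and these 3 genes were named after their values were seen.

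Of the GATOR complexes and amino acid sensors of mTORC1, 19 of 20 were in the table, and with the combination 6 were higher and 13 lower than untreated (median -0.06). Sesn2, the leucine sensor that binds GATOR2, was at 4.44 untreated and 5.34 with both (difference 0.89, SE 0.22, adjusted p = 0.32 by limma), and Sesn3 differed by -0.43 (SE 0.18, adjusted p = 0.55 by limma). The GATOR2 subunits Wdr59 and Wdr24 spanned 0.43 log2 each, Seh1l 1.05 and Sec13 1.02. Mios spanned 5.06, and 1.07 without untreated 2. For replication protein A and its partners, 9 of 10 genes had a positive interaction and 1 a negative one, median 0.34 against 0.00 for all genes. Rad52 gave 0.76 (SE 0.30) and Atr 0.62 (SE 0.29), both with adjusted p of 0.82 by limma. Rpa1 and Rpa2, the partners of Rpa3 in the complex, spanned 0.68 and 0.92 log2. Rpa3 spanned 5.29, and 1.55 without untreated 2.

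Among actin capping protein and its regulators, 10 of 11 were in the table. The combination against chloroquine gave 4 higher and 6 lower (median -0.01), with Carmil2 at -1.15 (SE 0.40, adjusted p = 0.60 by limma) and Capg at 0.20 (SE 0.14, adjusted p = 0.83 by limma). Capzb, the beta subunit that pairs with Capza2, spanned 0.52 log2 and Capza1 0.87, against 4.80 for Capza2. For the focal adhesion partners of testin, the same contrast gave 1 higher and 9 lower (median -0.23 against 0.01 for all genes). Zyx, the zyxin gene, differed by -0.56 (SE 0.14, adjusted p = 0.50 by limma) and Vasp by -0.36 (SE 0.15, adjusted p = 0.70 by limma). Of the ESCRT-I subunits, 8 of 9 were in the table, 5 higher and 3 lower in that contrast (median 0.13). Vps37b differed by 0.63 (SE 0.28) and Vps37d by 0.44 (SE 0.32), with adjusted p of 0.72 and 0.84 by limma.

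Markers of other cell types varied between the libraries as well, and in bulk RNA fewer cells of a type and less RNA per cell cannot be told apart. The summed level of 10 fibroblast markers, all in the table, ran from 22991 to 72535 CPM and correlated with the mean of the block around Met with r = -0.64 over 12 libraries (rho = -0.66). It was 31192 to 50284 CPM untreated, 39267 to 72005 with chloroquine, 22991 to 72535 with ADI-PEG20 and 23484 to 34081 with both. The adipocyte markers (7 of 10 in the table, without Lep, Cidea and Retn) gave r = -0.54, at 26.2 to 52.9 CPM untreated, 25.4 to 40.9 with chloroquine, 45.5 to 288 with ADI-PEG20 and 52.7 to 135 with both. ADI-PEG20 1, the lowest library for all 6 genes of the block, had the highest sums of fibroblast, adipocyte and skeletal muscle fibre markers.

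The other lists gave r of -0.45 (T cell), -0.35 (smooth muscle and pericyte), -0.32 (macrophage), -0.26 (myogenic progenitor), -0.25 (skeletal muscle fibre), -0.23 (keratinocyte), 0.10 (erythroid) and 0.13 (endothelial). Defining markers at 0 reads in a library were Cd3g, Krt5, Krt15, Krt17, Slc4a1 and Fgfr4, and markers not in the table include Tnnc2, Krt1, Epcam, Epb42, Ahsp and Klf1. The macrophage sum was 1288 to 1428 CPM untreated, 1219 to 1554 with chloroquine, 1559 to 2083 with ADI-PEG20 and 1783 to 2311 with both. The T cell sum was 11.1 to 21.7 CPM untreated, 16.9 to 46.8 with chloroquine, 28.8 to 33.4 with ADI-PEG20 and 17.6 to 31.6 with both. The macrophage and T cell sums did not overlap between untreated and ADI-PEG20 libraries, nor did the macrophage sum between untreated libraries and those given both. The myogenic progenitor sum did not overlap in either comparison. It was 1008 to 1076 CPM untreated, 858 to 1516 with chloroquine, 418 to 970 with ADI-PEG20 and 523 to 741 with both. The sums of the remaining lists overlapped in each comparison, as did the T cell sum between untreated libraries and those given both. Of all single genes, 10.1% did not overlap between untreated and ADI-PEG20 libraries, and 15.4% between untreated libraries and those given both. These are rates for single genes, and no such rate was computed for sums of markers. Endothelial cells, which express Cav1 strongly, had their 10 markers at 380 to 701 CPM in total, highest in untreated 2 and lowest in untreated 1, both high for Cav1. The part of other cell types in the members' levels was not tested.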

How the data were processed

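RNA-seq was made from tumors of BVMA01R (12 libraries, 4 groups of 3). Per the labels' protocols, RNA came from frozen tumors and ribosomal RNA was removed. The submitters' processing notes name the build mm10 and, with no role or order, limma, edgeR, Salmon 0.8.2, featureCounts 1.4.6-p5 from Subread, STAR 2.5.1a and bcl2fastq.

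The authors deposited a table of 16386 lines with log2 CPM per library; 51 lines repeat an identifier and were dropped, leaving 16335 genes. Per the file headers it also holds the authors' log2 fold changes, a signed linear fold change (a score, not used here), and p-values with adjusted p-values. The deposited values equal log2 of reads plus 0.5 over an effective library size: 100% of the 172363 values under 2000 reads came within 0.02 of a whole read. The low genes had already been removed (lowest total 85 reads), and no further filter was applied. Coordinates come from GENCODE M21 (GRCm38), which matched 16330 identifiers. Start regions and sequences come from RefSeq (GRCm38.p6).

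Each contrast was fitted with limma 3.58.1 (R 4.3.3) on log2 CPM, all 12 libraries in 1 fit, with a trend and no replicate block, adjusted by Benjamini and Hochberg over 16335 genes at 0.05, two-sided. The script was tested on simulated data. Members and gene lists were chosen with earlier results of these data known. Named genes were the members, the 6 nearest genes on each side of each block, the 10 genes with the highest r with each block mean, and of each partner list the 2 with the smallest p in its leading contrast, if none passed. Genes beyond St7, inside the blocks and high in untreated 2 were added after values were seen. Alternatives were log2(CPM + 1), plain totals, voom with quality weights on the recovered reads, a mean of at least 1 log2 CPM, the replicate block and leaving out each library. The authors' gene set tables were not used.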

Additional observations from a re-analysis of the deposited data

How the results depend on the processing

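No difference of a member between treatments passed the threshold under any setting run: of 510 values for 30 member differences, 0 passed and 9 were reversed, and 25 of the 30 kept their direction in all settings. With voom and library quality weights, Tes with ADI-PEG20 against untreated was 0.34 and St7 0.0195 on the log2 scale. In the same fit and contrast, Met was -0.33, Cav1 -0.41, Cav2 -0.21 and Capza2 -0.15. Their values in the main fit were -1.51, -1.46, -1.34 and -1.28. Leaving out single libraries moved Tes with ADI-PEG20 from -1.25 to 0.85, Tes with chloroquine from -1.41 to 0.69, Tes with both from -2.25 to 0.55 and Mios with both from -2.06 to 0.19. Over all genes, leaving out single libraries gave 0 to 1 genes called for ADI-PEG20 against untreated (1 without untreated 3) and 0 to 1 for the combination against chloroquine (1 without ADI-PEG20 3), and voom gave 1 for the latter. The replicate block gave 8 genes, none of them a member, for the combination against untreated and 0 in the other 5 contrasts. The libraries were not treated as pairs, since the labels do not say that a replicate number pairs libraries. Same numbers were still more alike, and a pairing is not excluded. Their deviations correlated by -0.05 to 0.20 (median 0.097, 9 of 18 over 0.1), those of different numbers by -0.24 to 0.19 (median -0.039, 3 of 36). The r of Tes with the mean of its block, 0.73, ran from 0.67 to 0.98 as single libraries were left out, highest without untreated 2. The cause of these changes was not tested. The planned edgeR and DESeq2 fits were not run; voom on the recovered reads was the fit to reads. Depth limits the scarcer block: for Mios to Glcci1 counting error alone was 0.056 to 0.16 log2 per library on average in treated groups, against group SDs of 0.10 to 0.52, while in the block around Met it was at most 0.049 against 0.89 to 2.62.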
